A study of Mus musculus with 6 samples.

Results

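Wnt target genes and genes of the crypt stem cell were measured as 10 genes, Lgr5, Ascl2, Smoc2, Olfm4, Rnf43, Znrf3, Axin2, Sox9, Myc and Cd44, chosen by name among 37991 gene identifiers. They were chosen with earlier results of these data known, and all 10 were present in the count tables. Cecal tissue of 3 HBUS mice, taken after 60 weeks, was sequenced as RNA. Each mouse (1119, 1192 and 1199) gave 1 serrated polyp and 1 sample of surrounding normal distal cecum, which makes 6 libraries in 3 pairs. In the HBUS strain the intestinal epithelium expresses 2 transgenes, HB-EGF, a growth factor, and US28, a chemokine receptor of viral origin, and serrated polyps arise in the cecum. Polyp and surrounding tissue shared these transgenes, and tissue of mice without them was not analysed here.

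Wnt ligands bind a Frizzled receptor and its LRP coreceptor, which disables the complex that destroys beta-catenin. Beta-catenin then enters the nucleus and, with TCF/LEF factors, switches on target genes, among them Axin2, Rnf43 and Znrf3, whose products damp the same signal. In the crypts of the intestine Wnt signalling maintains the stem cells at the crypt base, which Lgr5 marks, and R-spondins strengthen the signal through LGR receptors.

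Levels are in CPM, counts scaled to 1 library size with TMM factors that correct for composition, and means carry the SD over 3 mice. Every log2 fold change gives the polyp relative to the surrounding tissue, ± standard error (n = 3 pairs). Library totals ran from 6632645 to 13350119 counts, of which mitochondrial rRNA took 46.3% to 75.3%. This left 1852065 (surrounding tissue of mouse 1199) to 5096066 counts for other genes, and the polyp of mouse 1192 had counts for the fewest genes, 12867 against 15045 to 17301 in the other libraries. A detection floor of 3 counts stood at 0.214 to 0.676 CPM. All 9 markers of cecal and colonic epithelium had counts in both tissues. This does not check the cecal label, because no other gut region was measured here. The summed level of the 9 was 9370 to 12900 CPM in surrounding tissue and 6360 to 9990 CPM in polyps, where 3 of the 9 fell. Most of it was Car1, at a mean of 8290 CPM in surrounding tissue and 6680 CPM in polyps. Samples were whole tissue, in which fewer cells of a type and less RNA per cell cannot be told apart.

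None of the 10 genes passed the test for a difference between polyp and surrounding tissue, while the ligand gene Wnt5a and the receptor genes Fzd1 and Lrp5 rose in polyps. The 3 rises did not pass when mouse 1119 was left out, when the pairing was ignored or when libraries were scaled to epithelial genes. Their log2 fold changes stayed positive in these fits, from 0.53 (Lrp5, scaled to epithelial genes) to 1.85 (Fzd1, without mouse 1119). Lgr5 was lower in polyps in 3 of 3 mice, with 25 counts in the surrounding libraries and 3 in the polyp libraries, too few to enter the test. Axin2 and Znrf3 were lower in 3 of 3 mice at 3.24-fold and 2.18-fold less transcript, Smoc2 was lower in all 3 but nearly level in mouse 1192, and Cd44 was higher in 3 of 3 at 1.41-fold more, without passing. Of all genes tested, 18.6% were lower and 19.6% higher in the polyp of every mouse. Of the 10 genes, 7 had enough counts to be tested, and 0 of these 7 rose and 0 fell, where 2.76% of all 10960 genes tested were called. The test was edgeR's quasi-likelihood test on mouse-blocked counts, with a call at an adjusted p under 0.05 (Benjamini-Hochberg over all genes). In simulated data it recovered 24% of 2-fold and 63.7% of 4-fold changes, so a gene without a call can still differ. Of the calls made in those data 9.62% were false, more than the threshold of 0.05 aims at, so a call can also be wrong. The same 7 had 0 genes at an unadjusted p under 0.05, where 14.6% of all genes tested were, and 0 calls by DESeq2. The sign of the log2 fold change was positive for 3 and negative for 4, and the median was -0.30 against -0.02 over all genes tested.

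To show what the reference holds at the start of these genes, 1 upstream window is printed for a gene that was lower in every polyp (Axin2) and 1 for a gene that was higher in every polyp (Cd44). Each covers the 250 bases before the transcription start in RefSeq, build GRCm38.p6, 5′ to 3′ on the strand of the gene, Axin2 at chr11:108920099-108920348 on the plus strand and Cd44 at chr2:102901666-102901915 on the minus strand. Capitals mark CTTTG, the core that TCF/LEF factors recognise, or its reverse complement CAAAG.
Axin2: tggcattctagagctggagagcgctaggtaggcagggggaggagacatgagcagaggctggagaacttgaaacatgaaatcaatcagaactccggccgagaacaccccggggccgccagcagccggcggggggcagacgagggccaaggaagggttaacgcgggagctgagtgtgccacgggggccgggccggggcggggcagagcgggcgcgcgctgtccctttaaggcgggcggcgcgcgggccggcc
Cd44: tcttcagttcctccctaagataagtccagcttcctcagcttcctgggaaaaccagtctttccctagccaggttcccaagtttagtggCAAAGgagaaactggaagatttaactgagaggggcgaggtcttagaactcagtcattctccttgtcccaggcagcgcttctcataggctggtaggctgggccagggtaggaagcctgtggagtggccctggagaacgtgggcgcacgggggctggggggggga
Promoter windows were found for 5 of the 10 genes (Ascl2, Olfm4, Rnf43, Axin2 and Cd44), and those of Lgr5, Znrf3, Sox9, Myc and Smoc2 were missing from the table. The 7-letter motif CTTTGNN with A or T at both N positions, read on both strands, had 0 matches in the 250 bases of each of these genes, Rnf43 with both of its windows, where 14.8% of all 32851 windows held at least 1. The shorter core had 1 match in the Cd44 window and 0 in that of Axin2, and 48.6% of all windows held it. A missing match says only that these letters are not in this window.

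Among the stem cell genes, Lgr5 (ENSMUSG00000020140) is the receptor for R-spondins that marks cycling stem cells of the crypt base. It had 12, 8 and 5 counts in surrounding tissue of mice 1119, 1192 and 1199 and 1, 0 and 2 counts in their polyps. In CPM these were 1.14, 0.57 and 1.13 in surrounding tissue and 0.121, 0 and 0.284 in polyps. Every polyp lay below every surrounding sample, and each polyp value was under the detection floor of its own library. The pooled level was 0.861 CPM in surrounding tissue and 0.109 CPM in polyps, a ratio of 0.127 with an exact 95% interval of 0.0245 to 0.416 that covers counting error only. A two-sided exact paired permutation test over the 3 mice gave p = 0.25, the smallest value that 3 pairs allow. With no filter on low counts edgeR put the gene at adjusted p = 0.914, and DESeq2 gave it no adjusted p.

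Ascl2 (ENSMUSG00000009248), a basic helix-loop-helix factor that controls the intestinal stem cell state, had 14 counts in surrounding tissue of mouse 1192 and 0 in each of the other 5 libraries. The difference rested on that library alone. It held 45 genes with at least 10 counts there and 0 in all other libraries. The pooled surrounding level of 0.482 CPM was 4.41 times a floor of 3 counts over the 3 polyps (0.109 CPM). This ratio leaves out the counting error of the 14 counts and the spread between mice, so it is no lower bound. Smoc2 (ENSMUSG00000023886), a secreted matricellular protein of the Lgr5 stem cell signature, had 16, 36 and 10 counts in surrounding tissue of mice 1119, 1192 and 1199 and 0, 31 and 4 in the polyps. In mouse 1192 the levels were nearly equal, 2.56 and 2.55 CPM. The polyps of the other mice, at 0 and 0.569 CPM, lay below all surrounding samples. Smoc2 did not pass (log2 fold change -1.81 ± 1.23, adjusted p = 0.576), and its value ran from -3.05 without mouse 1192 to -0.88 without mouse 1119.

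Olfm4 (ENSMUSG00000022026), a secreted glycoprotein that marks stem cells of the mouse small intestine, went the other way. Its counts were 0 in all 3 surrounding libraries and 4, 20 and 0 in the polyps of mice 1119, 1192 and 1199. Pooled over polyps the level was 0.874 CPM, 8.46 times a floor of 3 counts over the surrounding libraries (0.103 CPM). Counting error and the spread between mice are left out of this ratio too. The polyp of mouse 1192 held 20 of the 24 counts. That library had 70 genes with at least 10 counts there and 0 in all others, and whether this bears on Olfm4 was not tested. Without the filter on low counts, edgeR gave Olfm4 adjusted p = 0.683. Exons of Olfm4 overlap those of Gm6999, a noncoding RNA gene on the same strand, over 153 bases. Gm6999 was not among the genes counted, and its part in the counts of Olfm4 was not tested.

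**Figure D1:**
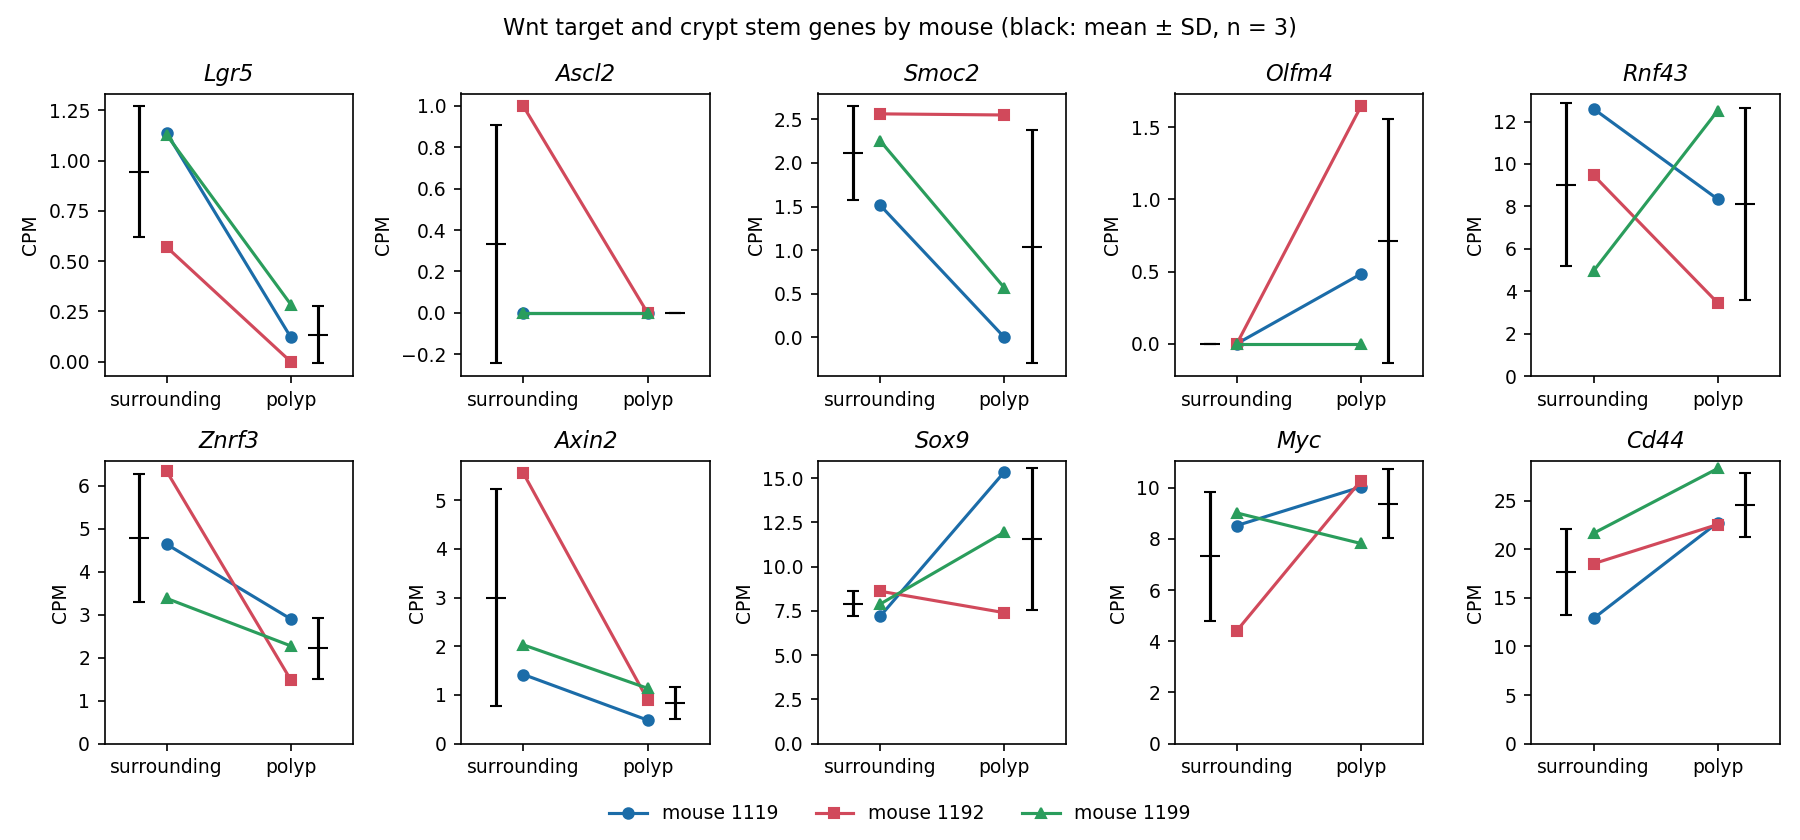
Level in CPM of each of the 10 genes in surrounding tissue and polyp, with 1 line per mouse and the mean ± SD (n = 3) in black beside it. Lgr5, Znrf3 and Axin2 go down and Cd44 goes up in all 3 mice, Smoc2 goes down but stays nearly level in mouse 1192, Rnf43 crosses, and Ascl2 rests on 1 library.

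Rnf43 and Znrf3 are transmembrane ubiquitin ligases that take Frizzled receptors off the cell surface, and R-spondins bound to LGR receptors clear these ligases away. Znrf3 (ENSMUSG00000041961) had 4.64, 6.34 and 3.38 CPM in surrounding tissue of mice 1119, 1192 and 1199 and 2.90, 1.48 and 2.28 CPM in the polyps. Its raw counts were 49, 89 and 15 in surrounding tissue and 24, 18 and 16 in the polyps. In mouse 1199 these were nearly equal, and the lower polyp level came from TMM factors of 0.593 (surrounding) and 1.06 (polyp). In CPM all polyps lay below all surrounding samples, as they did for 8.58% of all genes tested. The fitted difference was -1.12 ± 0.57 on the log2 scale (95% interval -2.42 to 0.17, adjusted p = 0.431 by edgeR). Rnf43 (ENSMUSG00000034177) did not share this pattern, at 12.6, 9.47 and 4.96 CPM in surrounding tissue and 8.34, 3.45 and 12.5 CPM in polyps. It was lower in the polyps of mice 1119 and 1192 and 2.52 times higher in that of mouse 1199, whose surrounding library had the fewest counts outside mitochondrial rRNA. Its log2 fold change of -0.30 ± 0.51 (adjusted p = 0.841) became 0.23 without mouse 1192 and -1.03 without mouse 1199.

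Axin2 (ENSMUSG00000000142), the scaffold protein whose induction by beta-catenin closes a negative feedback loop, had 15, 78 and 9 counts in surrounding tissue of mice 1119, 1192 and 1199 and 4, 11 and 8 in the polyps. Normalized, these were 1.42, 5.55 and 2.03 CPM against 0.484, 0.905 and 1.14 CPM. The groups did not overlap, and surrounding tissue of mouse 1192 stood well above the rest. The log2 fold change was -1.70 ± 0.85, with a 95% interval of -3.62 to 0.23 (adjusted p = 0.422). Without mouse 1192 the gene had too few counts to be tested. Exons of Axin2 overlap those of the antisense gene Gm11670 over 209 bases, and Gm11670 had 0 counts in every library.

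Axin2 served as the reference for the genes with the most similar pattern, since Lgr5 was not tested. Over the 6 samples the highest Pearson correlations of log2 CPM were those of Epas1, a hypoxia-inducible factor subunit, at 0.988, of Hadhb, a subunit of the mitochondrial enzyme of fatty acid oxidation, at 0.987, and of Fubp1, a single-stranded DNA binding protein, at 0.982. These points share mice and libraries, and each gene was highest in surrounding tissue of mouse 1192, where Epas1 had 102, Hadhb 55.4 and Fubp1 40.6 CPM. Among the tested members, the correlation with Axin2 was 0.72 for Znrf3, 0.69 for Smoc2 and 0.14 for Rnf43. It was -0.31 for Cd44, -0.49 for Sox9 and -0.89 for Myc.

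Among the transcription factors, Sox9 (ENSMUSG00000000567), which is expressed in crypt progenitors and Paneth cells, had 7.20, 8.62 and 7.89 CPM in surrounding tissue of mice 1119, 1192 and 1199 and 15.4, 7.40 and 11.9 CPM in polyps. It was higher in the polyps of mice 1119 and 1199 and lower in that of mouse 1192, with a log2 fold change of 0.49 ± 0.35 (adjusted p = 0.594). Without mouse 1119 this was 0.17 and without mouse 1192 it was 0.82. Of 6 Paneth cell markers 1 (Ang4) was tested and 0 passed (0 at an unadjusted p under 0.05 by edgeR, 0 calls by DESeq2), Defa5 was at 0 in every library, and their summed level was 1.58 to 5.98 CPM in surrounding tissue and 0.725 to 3.45 CPM in polyps. Myc (ENSMUSG00000022346), a driver of cell growth, had 8.52, 4.41 and 9.02 CPM in surrounding tissue and 10.0, 10.3 and 7.82 CPM in polyps. The polyp of mouse 1192 had 2.33 times its surrounding level, while that of mouse 1199 had 0.868 times. The log2 fold change of Myc was 0.43 ± 0.37 (adjusted p = 0.673), and -0.01 without mouse 1192. Of 10 proliferation genes 0 passed (1 at an unadjusted p under 0.05 by edgeR, 0 calls by DESeq2), and their summed level was 94.3 to 148 CPM in surrounding tissue and 73.0 to 107 CPM in polyps.

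Cd44 (ENSMUSG00000005087), the hyaluronan receptor found on crypt epithelium and also on leukocytes and stromal cells, had the most counts of the 10 genes. It had 12.9, 18.5 and 21.6 CPM in surrounding tissue of mice 1119, 1192 and 1199 and 22.7, 22.5 and 28.3 CPM in polyps. Every polyp lay above every surrounding sample, which held for 9.84% of all genes tested. The log2 fold change was 0.49 ± 0.22 (adjusted p = 0.344), with a 95% interval that reached 0 at its lower end and 0.99 at its upper end. Markers of fibroblasts and smooth muscle differed between the tissues. Of 11 fibroblast genes 4 rose and 0 fell, with a summed level of 90.1 to 173 CPM in surrounding tissue and 246 to 614 CPM in polyps and none at 0 in either tissue. Smooth muscle genes went the other way, with 0 of 8 tested higher and 2 that fell, and a summed level of 190 to 218 CPM in surrounding tissue and 17.2 to 80.3 CPM in polyps. Of 8 endothelial genes 6 were tested, all with positive values (median 1.17 on the log2 scale), and 0 passed (3 at an unadjusted p under 0.05 by edgeR, 0 calls by DESeq2). Their sum was 12.3 to 19.7 CPM in surrounding tissue and 17.6 to 49.1 CPM in polyps. Of 13 leukocyte genes 7 were tested and 0 passed (1 at an unadjusted p under 0.05 by edgeR, 0 calls by DESeq2). Their sum was 27.1 to 56.1 CPM and 32.6 to 50.9 CPM, and Cd79a was at 0 in all polyps. The part of these cells in the values of Cd44 and Smoc2 was not tested.

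The 15 general epithelial genes summed to 4750 to 7880 CPM in surrounding tissue and 7470 to 9670 CPM in polyps. The 3 of them that rose were the keratin genes Krt8, Krt18 and Krt19, 0 fell, and the median log2 fold change of the 15 was 0.27. Mean levels of these 3 were 1360, 114 and 641 CPM in surrounding tissue and 2190, 309 and 1030 CPM in polyps. Among the 9 cecal and colonic epithelial genes, in contrast, 8 had a negative log2 fold change, and scaling to those was not tried. Libraries were then scaled to the summed counts of the 15 general epithelial genes, on which the rise of the 3 keratin genes weighs. With this scaling the log2 fold changes of Cd44, Sox9 and Myc were 0.03, 0.03 and -0.03. Those of Axin2 and Znrf3 were -2.16 and -1.58, with 95% intervals of -4.06 to -0.26 and -2.92 to -0.24, and neither passed after adjustment (adjusted p = 0.144 and 0.133). This scaling moved the median of all genes tested from -0.02 to -0.48. Scaling changes only the library factors, which shifts all genes by nearly the same amount. Values relative to that median therefore stay as they were, 0.52 for Cd44, 0.51 for Sox9, 0.45 for Myc, -1.67 for Axin2 and -1.10 for Znrf3. Lgr5 stood at 0.156 ± 0.0432 counts per 1000 epithelial counts in surrounding tissue and 0.0152 ± 0.0147 in polyps (n = 3 each).

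**Figure D2:**
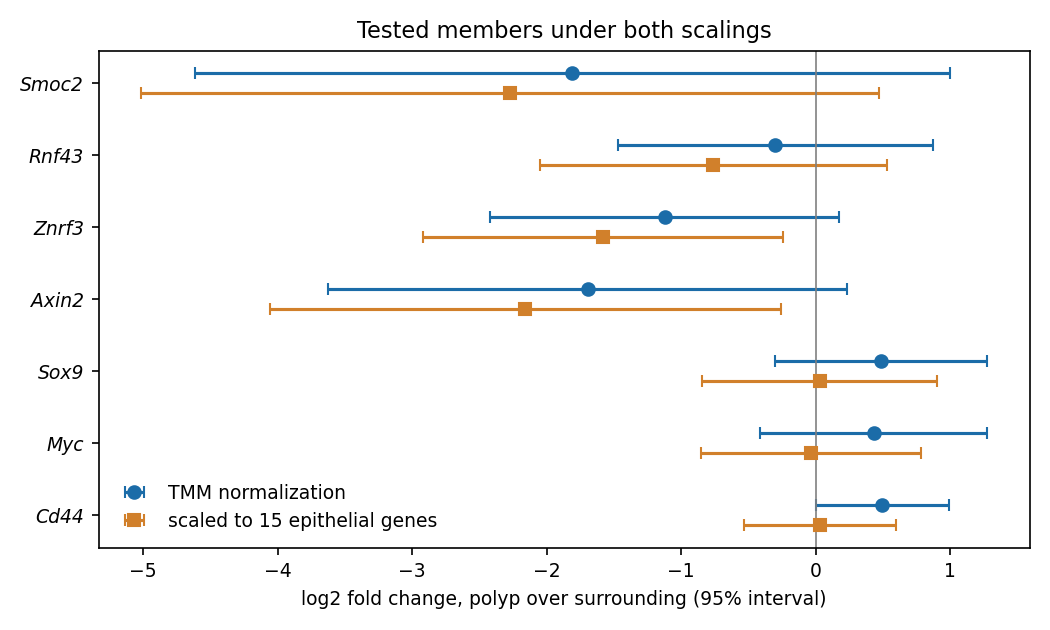
Log2 fold change, polyp over surrounding tissue, with its 95% interval for the 7 genes tested, under normalization for library composition (circles) and with libraries scaled to 15 epithelial genes (squares). Cd44, Sox9 and Myc move from between 0.43 and 0.49 to about 0, while the intervals of Axin2 and Znrf3 move below 0. The 15 genes include Krt8, Krt18 and Krt19, which rose in polyps.

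Set against the merged length of all annotated exons of each gene, the same 3 genes led in both tissues. This length can exceed that of a single transcript, which lowers the value. In surrounding tissue Myc (2.69 ± 0.93 CPM per kb) and Cd44 (2.61 ± 0.655) came first, followed by Sox9 (1.91 ± 0.171) and Rnf43 (1.37 ± 0.586). Each of these neighbours overlapped the next over the 3 mice. Znrf3 (0.606 ± 0.188) and Axin2 (0.545 ± 0.405) overlapped each other, and Lgr5 stood at 0.092 ± 0.0316 CPM per kb. In polyps Cd44 (3.62 ± 0.483), Myc (3.45 ± 0.498) and Sox9 (2.80 ± 0.965) again led, with overlapping ranges. Rnf43 had 1.24 ± 0.691 and Znrf3 0.281 ± 0.0902 CPM per kb, and their ranges did not overlap in polyps. Axin2 was at 0.153 ± 0.0602 and Lgr5 at 0.0132 ± 0.0139 CPM per kb.

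The wider pathway was read from 7 lists of 110 genes, of which 60 were tested. These lists were also chosen with earlier results of these data known, so their shares are a description only. In all, 4 of the 60 rose and 0 fell, beside 1.72% of all genes tested that rose and 1.04% that fell, and the difference between these shares was not tested. With libraries scaled to epithelial genes, 1 of the 60 rose and 3 fell, and over all genes 92 rose and 572 fell, against 189 and 114 before. Wnt5a (ENSMUSG00000021994), a ligand best known for signalling that does not pass through beta-catenin, had 5.49, 4.63 and 14.2 CPM in surrounding tissue of mice 1119, 1192 and 1199 and 29.9, 20.4 and 23.7 CPM in polyps. It rose by 1.78 ± 0.35 on the log2 scale (adjusted p = 0.0365), and every polyp lay above every surrounding sample. Of 21 genes for ligands and their secretion 4 were tested, and Wnt5a was the one that passed. Wnt1, Wnt3a and Wnt7a had 0 counts in every library. The R-spondin genes had 0 to 8 counts per library, and the receptor gene Lgr4 was measured at 148, 152 and 102 CPM in surrounding tissue and 124, 134 and 98.0 CPM in polyps (adjusted p = 0.657).

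Of 10 tested Frizzled and coreceptor genes, 2 rose and 0 fell, and 9 of the 10 had a positive log2 fold change, at a median of 0.70. The Frizzled receptor gene Fzd1 had 12.9, 3.99 and 18.3 CPM in surrounding tissue of mice 1119, 1192 and 1199 and 36.0, 27.4 and 35.6 CPM in polyps, and rose by 1.72 ± 0.34 on the log2 scale (adjusted p = 0.0356). Lrp5, a Wnt coreceptor, had 21.3, 21.4 and 14.4 CPM in surrounding tissue and 42.4, 37.9 and 32.9 CPM in polyps, and rose by 0.99 ± 0.19 (adjusted p = 0.0303). For both genes the tissues did not overlap. The other LRP coreceptor gene, Lrp6, named after its values were seen, had 149, 152 and 134 CPM in surrounding tissue and 97.2, 128 and 113 CPM in polyps. Its polyps all lay below its surrounding samples (log2 fold change -0.37 ± 0.14, adjusted p = 0.277), and it passed when libraries were scaled to epithelial genes. Of Fzd1 and Lrp5, neither passed when mouse 1119 or mouse 1199 was left out, Wnt5a did not when mouse 1119 or mouse 1192 was, and none of these 3 genes passed in a fit that ignored the pairing. Scaled to epithelial genes, Wnt5a, Fzd1 and Lrp5 had log2 fold changes of 1.32, 1.27 and 0.53 and did not pass (adjusted p = 0.0603, 0.0515 and 0.169). The fibroblast markers were higher in the same polyps, as given above, and their part in these rises was not tested.

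**Figure D3:**
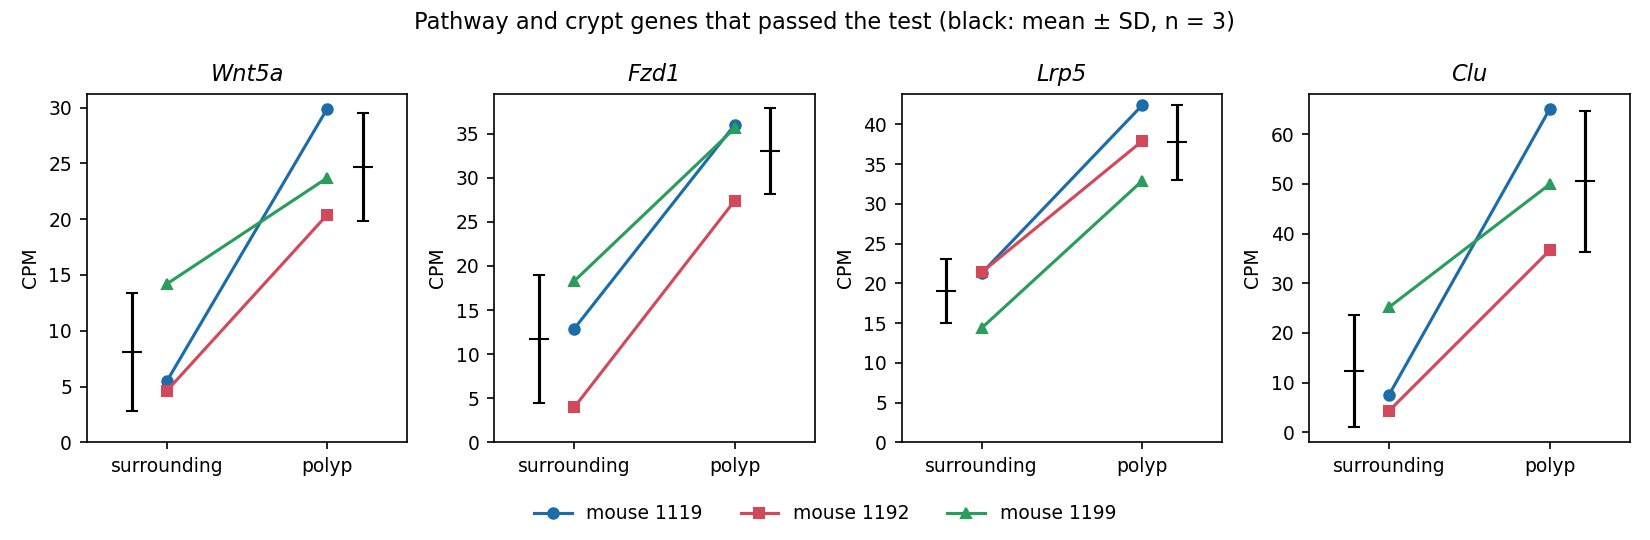
Level in CPM of Wnt5a, Fzd1, Lrp5 and Clu in surrounding tissue and polyp, with 1 line per mouse and the mean ± SD (n = 3) in black. Each polyp lies above each surrounding sample for all 4 genes, and mouse 1199 starts highest for Wnt5a, Fzd1 and Clu.

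Secreted inhibitors gave 3 tested genes of 14, of which 0 passed (1 at an unadjusted p under 0.05 by edgeR, 0 calls by DESeq2). Dkk3, a Dickkopf family gene, had the smallest p, at 1.33, 0.712 and 0.676 CPM in surrounding tissue and 4.84, 3.37 and 2.56 CPM in polyps (adjusted p = 0.234). Kremen1, a Dickkopf receptor, and Sfrp1, a secreted Frizzled-related protein, had log2 fold changes of 0.58 ± 0.44 and 0.30 ± 0.75. Notum, a Wnt-inactivating lipase and a beta-catenin target, had 0 counts in all 6 libraries.

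Of the destruction complex and transducers, 0 of 18 tested genes passed (2 at an unadjusted p under 0.05), with a median log2 fold change of 0.03. DESeq2 called 1 of them, Tcf7l2, the main TCF factor of intestinal epithelium. Tcf7l2 had 191, 135 and 153 CPM in surrounding tissue of mice 1119, 1192 and 1199 and 102, 93.2 and 122 CPM in polyps, with no overlap between the tissues (log2 fold change -0.59 ± 0.16, adjusted p = 0.0999 by edgeR). The coactivator gene Bcl9 was at 0.65 ± 0.26 and Ctnnb1, which encodes beta-catenin, at 0.29 ± 0.16 on the same scale (adjusted p = 0.283 and 0.464).

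Other Wnt target genes numbered 8 tested of 14, with 0 called (2 at an unadjusted p under 0.05 by edgeR, 0 calls by DESeq2) and a median of 0.12. Ephb2, an ephrin receptor that positions cells along the crypt, had 28.8, 22.4 and 33.1 CPM in surrounding tissue and 60.4, 35.6 and 48.5 CPM in polyps (log2 fold change 0.77 ± 0.18, adjusted p = 0.0675). Every polyp was above every surrounding sample for this gene. Cdx1, a homeobox factor of intestinal identity, was at -0.59 ± 0.18 (adjusted p = 0.158) and the corepressor gene Zfp703 at 0.67 ± 0.32 (adjusted p = 0.395).

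Among 16 tested genes of the other crypt stem and progenitor list, 1 rose and 0 fell, with 8 positive and 8 negative log2 fold changes (3 at an unadjusted p under 0.05 by edgeR, 2 calls by DESeq2). DESeq2 called Clu and Igfbp4, an insulin-like growth factor binding protein gene, which is named for that call and was at 1.43 ± 0.36 (adjusted p = 0.0922 by edgeR). The gene that rose was Clu, which encodes clusterin and marks the revival stem cells that appear after injury in the mouse intestine. It had 7.58, 4.34 and 25.2 CPM in surrounding tissue of mice 1119, 1192 and 1199 and 65.0, 36.6 and 49.9 CPM in polyps, and rose by 2.38 ± 0.44 on the log2 scale (adjusted p = 0.0395). With mouse 1119 or mouse 1192 left out, or the pairing ignored, Clu did not pass (adjusted p = 0.171, 0.233 and 0.26), and it passed when libraries were scaled to epithelial genes (1.93, adjusted p = 0.0282). Clu was higher and Lgr5, on 1, 0 and 2 polyp counts, lower in the polyp of each of the 3 mice. This pair was named after its values were seen, and the contrast was not tested. Of all genes tested, 19.6% were higher and 18.6% lower in the polyp of every mouse. The part of other cell types in the rise of Clu was not tested either.

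**Figure D4:**
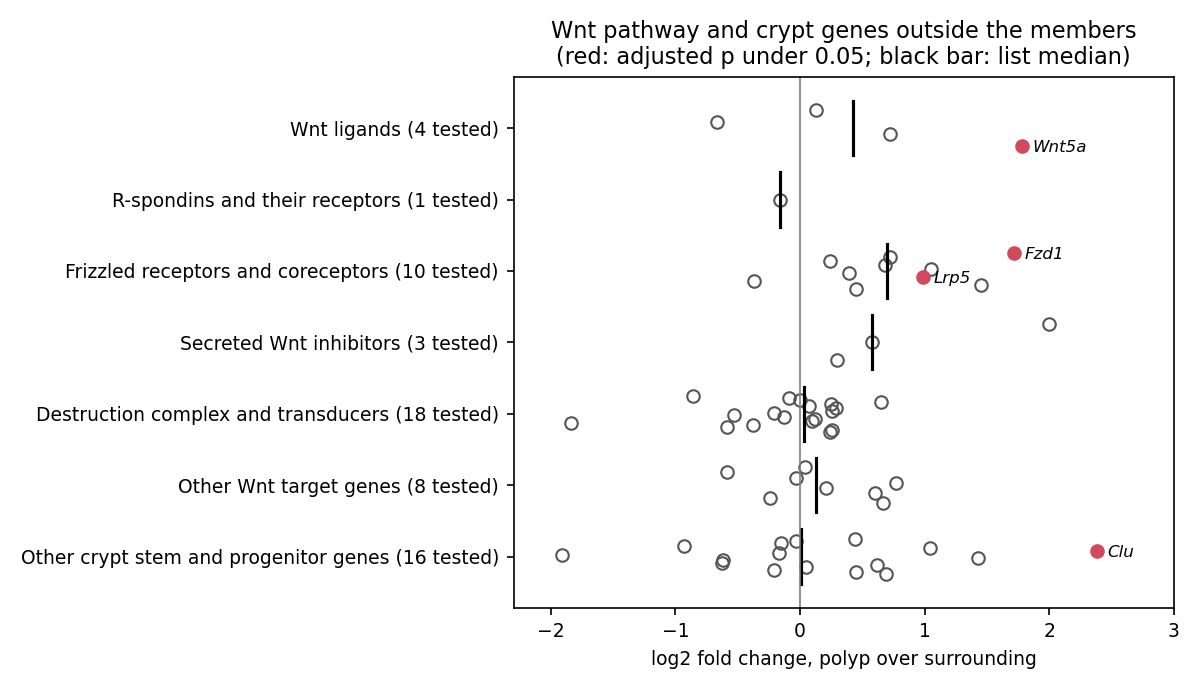
Log2 fold change, polyp over surrounding tissue, of each tested gene in the 7 pathway lists, with genes that passed the test in red and the list median as a black bar. The Frizzled and coreceptor list lies mostly above 0, with a median of 0.70, and the destruction complex list is spread around 0, with a median of 0.03.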

How the data were processed

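Each sample came with 1 deposited table of whole-number counts per gene, on which no normalization was done per the file headers. The submitters' processing notes list the tools HTSeq 0.5.3p9, TopHat2 2.0.7 and Bowtie 0.12.9. Genome build, strand setting and annotation were not given in the sources used here. Per the labels' protocols, RNA went through a kit that removes mammalian RNA (MICROBEnrich) and bacterial rRNA depletion before library PCR. The labels read as if the counts come from this treated RNA, which is not certain. Reads carry no molecular identifiers, so floors and intervals of counts cover counting error only.

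Symbols and exonic lengths came from GENCODE M21, which named 32919 of 37991 identifiers. All genes were tested together with edgeR 4.0.16 (R 4.3.3) by its two-sided quasi-likelihood test (robust option), with TMM factors of 0.593 to 1.43 and filterByExpr at a minimum count of 10, which kept 10960 genes. Standard errors came from the test statistic and its pooled spread. The mouse was a block, because the design text calls the samples paired and titles give the mouse. Deviations from the tissue means correlated at 0.0719 to 0.159 within mice. Nothing in the labels says more about how many polyps or sections a sample holds.

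The members and lists were chosen with earlier results of these data known. Genes named were the 10 members, up to 6 called genes or else the 3 with the smallest p of each list, and the 3 most similar to Axin2; others were named after their values were seen. Alternatives were no block, RLE, upper-quartile and epithelial scaling, a fit without genes that exceed 1% of any library, no filter, no robustness, DESeq2 1.42.0 and leaving out each mouse. The procedure was tested on simulated data. Promoter windows came from RefSeq (GRCm38.p6).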

Additional observations from a re-analysis of the deposited data

How the results depend on the processing

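No call was made among the 10 genes under any of the 11 alternatives, of which 8 tested 7 of them and the fit without mouse 1192 tested 6. The fit with no filter on low counts covered all 10, while DESeq2 gave Lgr5, Ascl2 and Olfm4 no adjusted p. Single values of the 7 tested genes kept their direction and their side of the threshold in 73 of 76 cases. Those that changed sign were Myc, at -0.03 scaled to epithelial genes and -0.01 without mouse 1192, and Rnf43, at 0.23 without mouse 1192. With 1 mouse left out, Myc ran from -0.01 to 0.71 and Rnf43 from -1.03 to 0.23. Over all genes 303 were called with the mouse as a block and 87 with no replicate block, 664 scaled to epithelial genes (92 higher and 572 lower, against 189 and 114), 753 with no filter on low counts and 501 with DESeq2. With 1 mouse left out, 83 to 281 were called. Of the pathway genes, 4 were called, against 0 without the block and 8 with no filter on low counts, and 0 to 3 with 1 mouse left out. Scaled to epithelial genes the balance turned, with Clu higher and Cdx1, Lrp6 and Tcf7l2 lower, 1 against 3. The median of all genes tested moved there from -0.02 to -0.48. The cause of these changes was not tested. Depth limits Lgr5, Ascl2 and Olfm4 most, since each had at most 20 counts in any library.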

Other observations

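In some Wnt ligand genes 1 library held most or all of the counts, and they are named here because of those values. Wnt10a had 135 counts in the polyp of mouse 1119 and 0 in the other 5 libraries. Wnt7b had 44 counts in the polyp of mouse 1199, 4 in that of mouse 1119 and 0 in the rest. Wnt16 had 33 counts in the polyp of mouse 1192 and 3 in surrounding tissue of that mouse. Genes with at least 10 counts in 1 library and 0 in all others numbered 24, 45 and 0 in surrounding tissue of mice 1119, 1192 and 1199 and 26, 70 and 19 in their polyps. Wnt10a had the highest such count of all genes.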
